A study of Mus musculus with 19 samples.

Results

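Glucose uptake and the control of glycolysis were followed here through 10 genes in mouse embryonic stem cells and the epiblast-like cells made from them. The genes are Slc2a1 and Slc2a3 (glucose transporters), Hk1 and Hk2 (hexokinases), Pfkl and Pfkp (phosphofructokinases), Pkm (pyruvate kinase), Ldha and Ldhb (lactate dehydrogenase subunits) and Pdk1 (pyruvate dehydrogenase kinase). They were chosen by name, as the carriers and enzymes at the entry, the committed steps and the exit of the pathway. They are 10 of the 54119 genes in the table, and all 10 were among the 14972 genes that passed the filter on low values. RNA was sequenced in 19 libraries of 6 groups. Wild-type XX mouse embryonic stem cells (mESC) and Tet3-/- mESC were of the female LF2 line, with 3 and 4 libraries, and XY mESC were of the male E14 line, with 3 libraries. The mESC were grown in LIF with inhibitors of the MEK and GSK3 kinases, which holds them in naive pluripotency. Epiblast-like cells (EpiLC), which resemble the epiblast after implantation, were made by 5 days in FGF5 and Activin A without LIF, with 3 libraries each of XX, XY and Tet3-/-. The Tet3-/- libraries are numbered as mutants #1 to #4 in mESC and #1, #3 and #4 in EpiLC, and the labels do not say whether a number is a clone, a culture or a repeat. Every difference between XX and XY is also a difference between the LF2 and E14 lines, and sex and line cannot be told apart.

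Glucose enters cells through facilitative transporters of the GLUT family, is trapped by hexokinase as glucose 6-phosphate, and is committed to glycolysis by phosphofructokinase. Pyruvate kinase makes pyruvate, which lactate dehydrogenase reduces to lactate or the mitochondrial pyruvate dehydrogenase complex turns into acetyl-CoA, and pyruvate dehydrogenase kinases switch that complex off. Naive mouse embryonic stem cells are known to use both oxidative phosphorylation and glycolysis, and primed epiblast stem cells are known for a reliance on glycolysis. The isozymes compared here carry out the same reaction with different affinity, regulation or location.

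Values are TPM (transcripts per 1000000) summed over the transcripts of a gene, divided by a size factor per library computed as the median of ratios, and are called scaled TPM. The scaling was used because protein-coding genes held from 31.3% ± 1.04 (SD, n = 3) of TPM in XX EpiLC to 48.4% ± 1.12 (SD, n = 3) in XY EpiLC, and in unscaled TPM the median gene had a log2 fold change of 0.54 in the XY transition and of -0.58 for XX minus XY in EpiLC. After scaling the median gene lay within 0.02 of 0 in all 9 contrasts. Log2 fold changes are on the log2(scaled TPM + 1) scale and come with their standard error (SE) and the adjusted p of limma, called below 0.05, and for the 10 genes the result on unscaled TPM is given where it alters a call. Sequencing depth cannot be read from TPM and is unknown, and the p-values measure the spread between libraries that the labels do not describe as separate cultures. Gene-level RNA did not check the genotype: Tet3 was at 0.522 to 0.847 scaled TPM in Tet3-/- mESC and 0.656 to 1.24 in XX mESC, and it was not called (limma adjusted p = 0.44). In EpiLC it was at 1.06 to 1.323 in Tet3-/- and 1.405 to 1.924 in XX, groups that did not overlap. That difference was not called either (log2 fold change -0.3451, SE 0.1216, limma adjusted p = 0.1145). All 8 markers of naive pluripotency tested fell in EpiLC in each genotype (7 of 8 in XY on unscaled TPM), and their summed level was 453 to 631 in mESC and 36.1 to 92.1 in EpiLC. Of 6 formative markers 4, 5 and 4 rose in XX, XY and Tet3-/-, and 1, Otx2, fell in XX (-0.92, limma adjusted p = 0.000212) where it rose by 3.95 in XY. The summed level of 6 fibroblast feeder markers was at most 6.46 in any library. One mESC and 1 EpiLC library stood apart from their groups, XX mESC replicate 2 and Tet3-/- EpiLC #3. Tet3-/- EpiLC #3 also held more T (Brachyury), a mesoderm gene, at 70.8 scaled TPM against 1.3 and 1.4 in the other two. For some results that rest on either library, the value without it or the values of the single libraries are given.

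From mESC to EpiLC, the transporter Slc2a1 and the phosphofructokinase Pfkl rose and Hk1, Pfkp and Ldhb fell in all 3 genotypes. In XX cells 3 of the 10 genes rose and 3 fell, where 50.4% of all tested genes were called, 24.5% higher and 25.9% lower. In XY cells 2 rose and 3 fell, with 51.4% of all genes called, 26.4% higher and 25% lower. In Tet3-/- cells 3 rose and 4 fell, with 52.4% called, 25.2% higher and 27.2% lower. The share of the 10 genes called was near that of all genes in XX and XY and above it in Tet3-/-, and 10 genes are too few to read more from it. On unscaled TPM 5 of the 10 genes were called in XX (2 higher, 3 lower), 6 in XY (4 higher, 2 lower) and 4 in Tet3-/- (1 higher, 3 lower), where 31.3%, 50.5% and 35.1% of all genes were. The medians of the 10 genes were log2 fold changes of 0.02 (XX), 0.00 (XY) and 0.31 (Tet3-/-), beside all-gene medians within 0.02 of 0. In each enzyme pair 1 gene fell in every genotype (Hk1, Pfkp, Ldhb), and its partner rose (Pfkl), was not called on scaled TPM (Ldha) or was called lower in Tet3-/- alone (Hk2). Cells were measured in bulk, so fewer cells of a type and less RNA per cell cannot be told apart in any of these values.

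**Figure D1:**
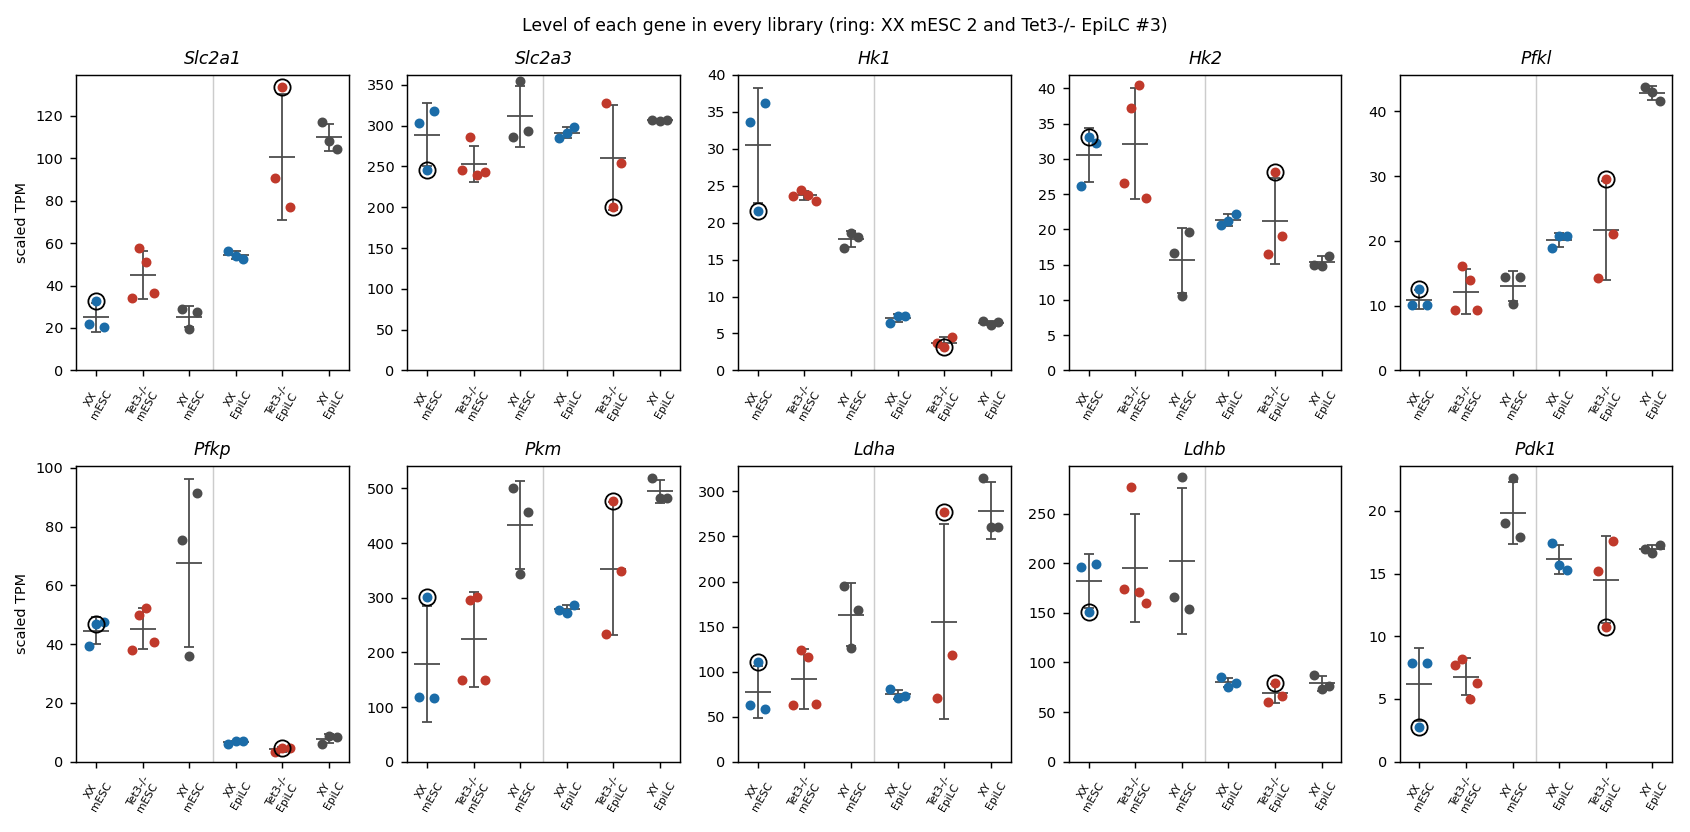
Scaled TPM of the 10 genes on a linear axis in every library, by genotype (XX, XY, Tet3-/-) and state (mESC, EpiLC). Each point is 1 library, bars are group means ± SD, and rings mark XX mESC replicate 2 and Tet3-/- EpiLC #3. Hk1, Pfkp and Ldhb sit lower in the EpiLC libraries of all 3 genotypes, Slc2a1 sits higher, and the ringed libraries are high for Pkm and Ldha within their groups.

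The plot of every library shows how tight the XX and XY EpiLC groups were beside the mESC groups. In the LF2 line 3 mESC libraries, XX replicate 2 and Tet3-/- #2 and #3, were high together for Pkm (296.7 to 300.9) and Ldha (110.2 to 124.4), whereas XX replicates 1 and 3 and Tet3-/- #1 and #4 lay at 116.5 to 149.6 for Pkm and 58.1 to 63.8 for Ldha. This split ran across the genotypes and widened the spread of both groups for these 2 genes. Slc2a1 was also highest in these libraries within each genotype. It was at 32.9 in XX replicate 2 against 21.89 and 20.28, and at 57.66 and 50.99 in Tet3-/- #2 and #3 against 34.25 and 36.66.

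**Figure D2:**
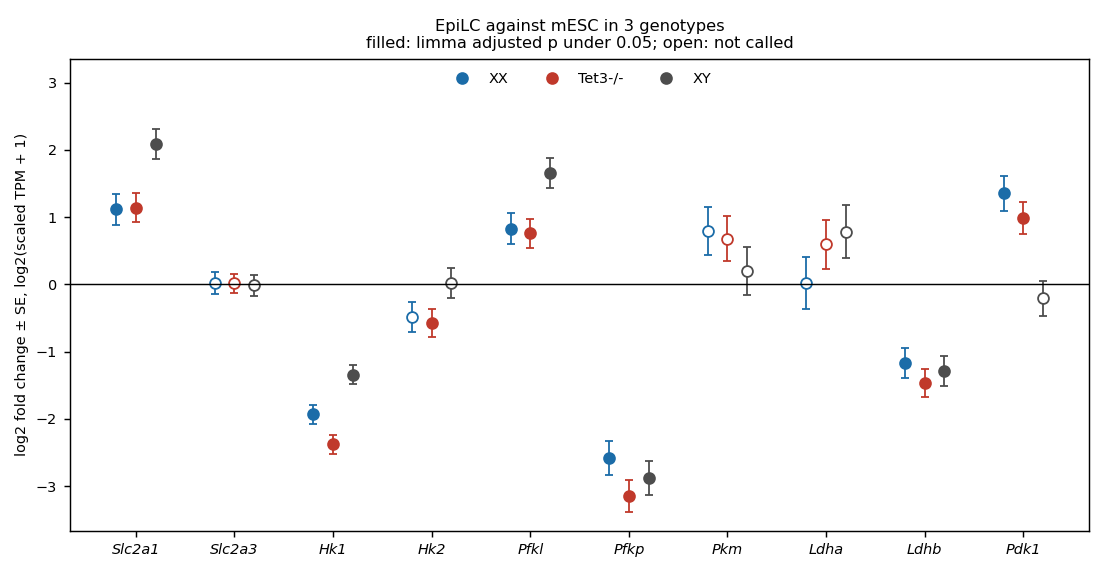
Log2 fold change (± SE) of the 10 genes from mESC to EpiLC in XX, XY and Tet3-/- cells on the log2(scaled TPM + 1) scale; filled points passed limma's adjusted p of 0.05 and open points did not. Hk1 and Pfkp lie far below 0 in all 3 genotypes, Slc2a1 and Pfkl above it, and Pdk1 is above 0 in XX and Tet3-/- but not in XY.

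Slc2a1 (ENSMUSG00000028645.11, chr4:119108711-119137983, GRCm38, + strand) encodes GLUT1, a glucose transporter found on most dividing cells. It was at 21.9, 32.9 and 20.3 scaled TPM in XX mESC and 56.2, 53.9 and 52.6 in XX EpiLC. In XY cells it went from 28.9, 19.6 and 27.6 to 117, 108 and 105. In Tet3-/- cells it was at 34.2, 57.7, 51.0 and 36.7 in mESC #1 to #4 and at 90.8, 134 and 77.0 in EpiLC #1, #3 and #4. Within each genotype the states did not overlap, and mutant mESC #2 was above the XX EpiLC libraries. The rise was 2.17-fold in XX (log2 fold change 1.12, SE 0.23, limma adjusted p = 0.000684), 4.33-fold in XY (2.09, SE 0.23, 1.12e-06) and 2.24-fold in Tet3-/- (1.14, SE 0.21, 0.000286). On unscaled TPM the rise in Tet3-/- was not called (limma adjusted p = 0.0632).

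Slc2a3 (ENSMUSG00000003153.10, chr6:122727809-122801640, - strand) encodes GLUT3, a transporter of high affinity for glucose. It had the higher level of the transporter pair in every library, at 200.0 to 354.7 scaled TPM, and its groups overlapped across states in all genotypes. The log2 fold changes of its transitions were 0.02 in XX, -0.02 in XY and 0.01 in Tet3-/-, each with SE of at most 0.16, and none was called. On unscaled TPM the XY value was 0.66 and was called (limma adjusted p = 0.0242), where the median of all genes had moved by 0.54.

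Hk1 (ENSMUSG00000037012.18, chr10:62268855-62379908, - strand) encodes the hexokinase of most tissues, which binds the outer mitochondrial membrane. It was at 33.6, 21.6 and 36.2 scaled TPM in XX mESC, 16.6, 18.6 and 18.0 in XY mESC, and 23.6, 24.5, 23.7 and 22.9 in Tet3-/- mESC. In EpiLC it was at 6.43, 7.40 and 7.34 in XX, 6.66, 6.09 and 6.49 in XY, and 3.65, 3.16 and 4.52 in Tet3-/-. All mESC libraries were above all EpiLC libraries, and the 3 mutant EpiLC libraries were the lowest of all. Its mean was 4.32-fold lower in EpiLC in XX (log2 fold change -1.93, SE 0.15, limma adjusted p = 1.78e-08), 2.77-fold lower in XY (-1.34, SE 0.15, 1.17e-06) and 6.27-fold lower in Tet3-/- (-2.38, SE 0.14, 4.64e-10).

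Hk2 (ENSMUSG00000000628.10, chr6:82725025-82774454, - strand), the insulin-responsive hexokinase that is also high in many tumours, had smaller log2 fold changes. It was at 26.2, 33.2 and 32.3 scaled TPM in XX mESC and 20.6, 21.1 and 22.2 in XX EpiLC, groups that did not overlap, with a log2 fold change of -0.49 (SE 0.22) that was not called (limma adjusted p = 0.0782). It was at 10.6 to 19.6 in XY mESC and 14.8 to 16.3 in XY EpiLC, with a log2 fold change of 0.02. In Tet3-/- cells it was at 26.5, 37.3, 40.5 and 24.4 in mESC and 16.5, 28.1 and 19.1 in EpiLC, where the groups overlapped. There its log2 fold change was -0.58 (SE 0.21, limma adjusted p = 0.0282), a call that was lost without mESC #2 (0.0769), mESC #3 (0.0876), EpiLC #1 (0.146) or EpiLC #4 (0.0898) and on unscaled TPM (0.162), with a range of 0.00590 to 0.334 over 13 alternatives.

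Pfkl (ENSMUSG00000020277.10, chr10:77986947-78010083, - strand) encodes the liver type of phosphofructokinase. It was at 10.1, 12.6 and 10.1 scaled TPM in XX mESC and 18.9, 20.8 and 20.8 in XX EpiLC. In XY cells it was at 14.4, 10.3 and 14.5 in mESC and 43.8, 43.0 and 41.6 in EpiLC, the highest 3 values of all libraries. Tet3-/- cells had 9.32, 16.1, 14.0 and 9.30 in mESC and 14.2, 29.6 and 21.03 in EpiLC, and these overlapped. The rise was 1.84-fold in XX (log2 fold change 0.83, SE 0.23, limma adjusted p = 0.00582), 3.28-fold in XY (1.66, SE 0.23, 1.28e-05) and 1.77-fold in Tet3-/- (0.76, SE 0.21, 0.00643). On unscaled TPM the XX and Tet3-/- rises were not called (limma adjusted p = 0.0606 and 0.242).

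Pfkp (ENSMUSG00000021196.14, chr13:6579768-6648777, - strand) encodes the platelet type of the same enzyme. It was at 39.3, 47.0 and 47.5 scaled TPM in XX mESC and 5.91, 6.92 and 6.99 in XX EpiLC. XY mESC spread from 36.1 to 91.4, and XY EpiLC held 6.06, 8.92 and 8.35. In Tet3-/- cells it was at 37.9, 50.1, 52.3 and 40.9 in mESC and 3.30, 4.77 and 4.65 in EpiLC. No mESC library came near an EpiLC library, and it had the largest fold of the 10 genes in every transition. Its mean was 6.74-fold lower in EpiLC in XX (log2 fold change -2.58, SE 0.25, limma adjusted p = 3.39e-07), 8.70-fold lower in XY (-2.88, SE 0.25, 7.80e-08) and 10.7-fold lower in Tet3-/- (-3.14, SE 0.24, 1.09e-08). Transcripts with a coding sequence held from 40.2% to 78.4% of its TPM per library, and the gene sum counts the others too.

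Pkm (ENSMUSG00000032294.17, chr9:59656368-59679375, + strand) encodes pyruvate kinase, whose transcripts take 1 of 2 mutually exclusive exons. In XX mESC it was at 119, 301 and 117 scaled TPM and in XX EpiLC at 278, 272 and 288. XY cells had 500, 344 and 457 in mESC and 519, 483 and 483 in EpiLC. Tet3-/- cells had 150, 297, 301 and 149 in mESC and 234, 476 and 350 in EpiLC. The states overlapped in every genotype, and no transition was called. Its log2 fold change was 0.79 in XX (SE 0.36, limma adjusted p = 0.0772), 0.21 in XY and 0.68 in Tet3-/-. Without XX mESC replicate 2, the single high XX mESC library, the XX value was 1.24 (limma adjusted p = 0.00429), and without Tet3-/- EpiLC #1 the mutant value was 0.95 (0.0436).

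The 2 exons lie next to each other on the + strand of chr9 (GRCm38), the upstream one at chr9:59675029-59675195 and the downstream one at chr9:59675568-59675734. The upstream exon gives the PKM1 form of adult muscle and brain, and the downstream exon the PKM2 form of embryonic and dividing cells. They are shown because reads over them decide which form a transcript estimate belongs to. Both are 167 bases long and match at 103 positions (61.7%), and capitals mark the 64 positions at which they differ.
Pkm upstream exon: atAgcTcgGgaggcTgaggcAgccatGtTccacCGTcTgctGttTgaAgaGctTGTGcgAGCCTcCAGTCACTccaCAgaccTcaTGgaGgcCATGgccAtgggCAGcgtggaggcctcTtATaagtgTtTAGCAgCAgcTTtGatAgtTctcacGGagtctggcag
Pkm downstream exon: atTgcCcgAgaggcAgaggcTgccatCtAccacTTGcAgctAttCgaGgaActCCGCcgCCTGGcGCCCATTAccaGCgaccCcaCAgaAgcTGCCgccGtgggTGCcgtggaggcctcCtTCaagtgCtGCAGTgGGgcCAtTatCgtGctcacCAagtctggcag
Transcripts with the downstream exon held 91.0% to 96.9% of Pkm TPM per library. The upstream exon's share of TPM assigned to either exon was 0.634% ± 0.372 (SD, n = 3) in XX mESC, 0.783% ± 0.218 (SD, n = 4) in Tet3-/- mESC and 1.90% ± 0.0263 (SD, n = 3) in XY mESC. Among EpiLC, XX had 1.21% ± 0.283 (SD, n = 3), Tet3-/- 1.17% ± 0.236 (SD, n = 3) and XY 1.29% ± 0.0802 (SD, n = 3). Pkm RNA was mostly of the downstream-exon form in all 6 groups, and the XY mESC libraries, at 1.87% to 1.92%, held a larger minor share than any other library. These shares are the estimates of the quantification program and have no counts behind them here, so they carry no interval.

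Ldha (ENSMUSG00000063229.15, chr7:46841475-46855627, + strand) encodes the lactate dehydrogenase subunit that favours the step from pyruvate to lactate. It was at 62.6, 110 and 58.1 scaled TPM in XX mESC and 80.6, 71.2 and 73.3 in XX EpiLC, with a log2 fold change of 0.02 (SE 0.39). XY cells had 195, 126 and 168 in mESC and 315, 261 and 260 in EpiLC, groups that did not overlap and whose means differed 1.71-fold. The XY log2 fold change of 0.79 (SE 0.39) was not called (limma adjusted p = 0.105), but it was called in 5 of 12 alternatives (0.0117 to 0.224). On unscaled TPM it was 1.46 (limma adjusted p = 0.0333), after quantile normalization 1.25 (0.0153) and with TPM rescaled over protein-coding genes 1.11 (0.0398). Tet3-/- cells had 63.1, 124, 117 and 63.8 in mESC and 70.9, 277 and 119 in EpiLC, with a log2 fold change of 0.60 (SE 0.37, limma adjusted p = 0.187). Mutant EpiLC #3 alone lay in the range of XY EpiLC, and mutant EpiLC #1 was just below the lowest XX EpiLC library. Without both libraries that stood apart the mutant value was 0.07 (limma adjusted p = 0.852), and without EpiLC #1 it was 1.04 (0.0233).

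Ldhb (ENSMUSG00000030246.11, chr6:142490249-142507957, - strand) encodes the subunit that favours the step from lactate to pyruvate. It was at 196, 151 and 200 scaled TPM in XX mESC, 166, 287 and 154 in XY mESC, and 174, 277, 171 and 160 in Tet3-/- mESC. In EpiLC it was at 84.9, 75.1 and 79.6 in XX, 87.6, 73.3 and 76.4 in XY, and 60.6, 79.3 and 66.6 in Tet3-/-. All mESC libraries lay above all EpiLC libraries. Its mean was 2.28-fold lower in EpiLC in XX (log2 fold change -1.17, SE 0.23, limma adjusted p = 0.000402), 2.55-fold lower in XY (-1.29, SE 0.23, 0.00016) and 2.84-fold lower in Tet3-/- (-1.47, SE 0.21, 2.05e-05). On unscaled TPM the XY value was -0.62 and was not called (limma adjusted p = 0.0835).

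Pdk1 (ENSMUSG00000006494.11, chr2:71873224-71903858, + strand) encodes a kinase that inhibits the pyruvate dehydrogenase complex. It was at 7.87, 2.79 and 7.86 scaled TPM in XX mESC and 7.71, 8.21, 5.00 and 6.25 in Tet3-/- mESC, but at 18.99, 22.6 and 17.9 in XY mESC. All EpiLC groups were close to each other, at 17.4, 15.7 and 15.3 in XX, 16.9, 16.7 and 17.3 in XY, and 15.2, 10.8 and 17.6 in Tet3-/-. It rose in XX (log2 fold change 1.36, SE 0.26, limma adjusted p = 0.000395) and in Tet3-/- (0.99, SE 0.24, 0.00273), and the XY value was -0.21 (SE 0.26, 0.536). Without XX mESC replicate 2, its lowest library, the XX value was 0.95, and the XX call held with each library left out. Coding transcripts held from 17.9% to 42.7% of its TPM per library, the lowest share among the 10 genes, and the XX and Tet3-/- calls were kept when only coding transcripts were summed.

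Among the isozyme pairs, the phosphofructokinases changed order in every library. In mESC, Pfkp was 3.11 to 6.32 times as high as Pfkl in every library, and in EpiLC Pfkl was 2.97 to 7.23 times as high as Pfkp. The mean log2 ratio of Pfkp to Pfkl went from 2.02 to -1.60 in XX, from 2.28 to -2.47 in XY and from 1.92 to -2.27 in Tet3-/-. Hk2 and Hk1 were nearly level in mESC, with mean log2 ratios of Hk2 to Hk1 of 0.03, -0.23 and 0.41 in XX, XY and Tet3-/-, and Hk2 was the higher in EpiLC, at 1.58, 1.25 and 2.43. The Ldha to Ldhb ratio went from -1.29 to -0.09 in XX, from -0.27 to 1.81 in XY and from -1.12 to 0.95 in Tet3-/-. Ldha was thus the lower of the pair in all XX libraries and the higher in all XY and Tet3-/- EpiLC libraries. Slc2a3 stayed the higher transporter throughout, but the Slc2a1 to Slc2a3 ratio went from -3.55 to -2.42 in XX, from -3.62 to -1.48 in XY and from -2.52 to -1.38 in Tet3-/-. In all 12 comparisons of mESC with EpiLC the libraries did not overlap. How often the ratios of other gene pairs did so was not counted, and 50.4% to 52.4% of all tested genes were called in these transitions. The exact 2-sided permutation p was 0.1 with 3 libraries against 3 and 0.0571 with 4 against 3, the smallest these designs allow, and 0.133 after Benjamini-Hochberg adjustment over 28 ratio comparisons.

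**Figure D3:**
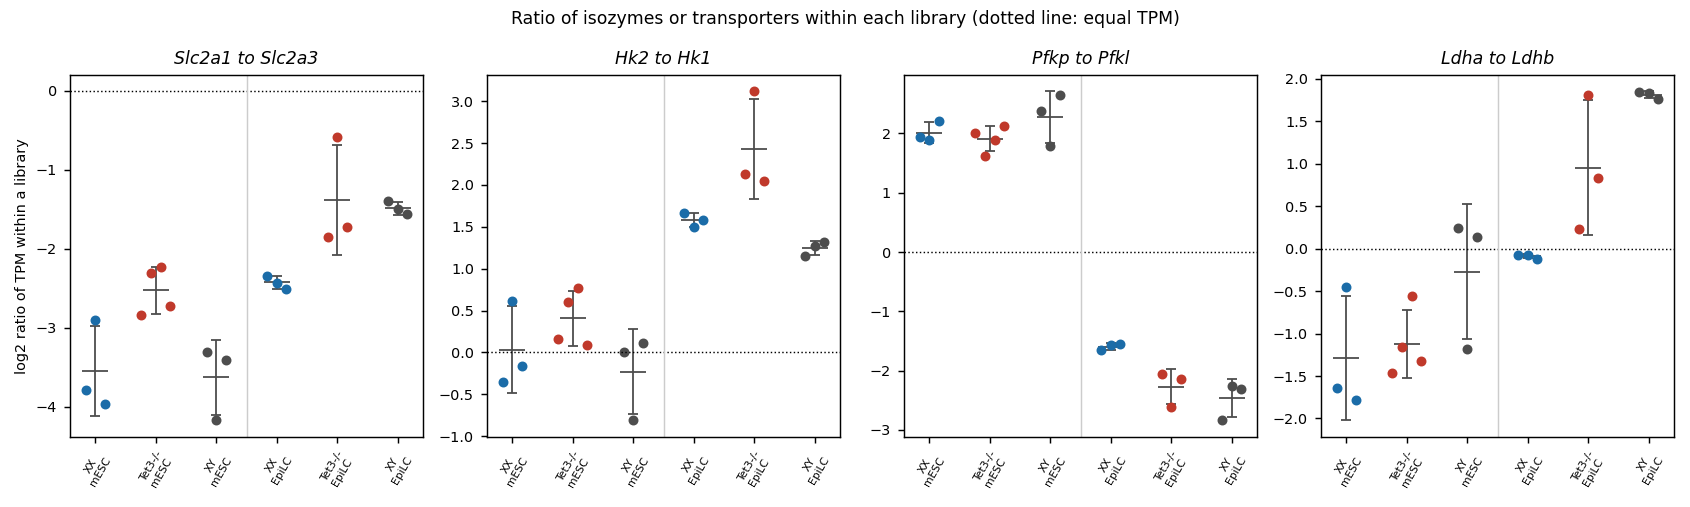
Log2 ratio of unscaled TPM (0.1 added) for 4 isozyme or transporter pairs in every library, by genotype and state. Points are libraries, bars are group means ± SD and the line at 0 marks equal levels. Pfkp to Pfkl crosses from above 0 in all mESC libraries to below 0 in all EpiLC libraries, and Ldha to Ldhb is above 0 in the XY and Tet3-/- EpiLC libraries.

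Apart from the 0.1 added, a ratio within a library does not depend on the scaling of the libraries. Both numbers in a ratio are levels per length of transcript, and the ratio is of RNA and not of enzyme activity.

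Tet3-/- cells held more Slc2a1 than XX cells in both states and less Hk1 in EpiLC, and 8 of the 10 genes were called in neither state. The comparison asks which genes differ between Tet3-/- and wild-type cells of the same line, and it shares the XX and mutant libraries with the transitions above. In mESC 1 of the 10 genes was called, where 3.18% of all tested genes were called, and in EpiLC 2 were called, where 5.46% were. On unscaled TPM none of the 10 was called in either state, where 0.601% and 1.08% of all genes were. Slc2a1 was higher in Tet3-/- by 1.79-fold in mESC (log2 fold change 0.82, SE 0.21, limma adjusted p = 0.0484) and by 1.85-fold in EpiLC (0.84, SE 0.23, 0.0420), and the groups did not overlap in either state. On unscaled TPM the groups overlapped and neither was called (limma adjusted p = 0.319 and 0.675). In mESC the call was lost without XX replicate 1 (limma adjusted p = 0.215), XX replicate 3 (0.230), #2 (0.139), #3 (0.101) or #4 (0.0562), and it held in 4 of 12 alternatives (0.00267 to 0.319). In EpiLC it was lost without XX replicate 1 (0.0937), 2 (0.131), 3 (0.141), #1 (0.0562) or #3 (0.156), and it held in 6 of 12 alternatives (0.0230 to 0.675). The direction was the same in all of these alternatives.

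Hk1 was 1.87-fold lower in Tet3-/- EpiLC than in XX EpiLC (log2 fold change -0.76, SE 0.15, limma adjusted p = 0.00596), and the groups did not overlap. That call held with each of the 6 libraries left out in turn and in 9 of 12 alternatives (limma adjusted p from 0.000408 to 0.0975), but not on unscaled TPM (-0.84, limma adjusted p = 0.0975). In mESC the Hk1 difference was -0.32 (SE 0.14, limma adjusted p = 0.287), and -0.54 (0.00398) without XX mESC replicate 2. Ldha was 0.82 higher in Tet3-/- EpiLC on the log2 scale (SE 0.39, limma adjusted p = 0.268), a value of 0.29 (0.633) without both libraries that stood apart. In EpiLC, 5 of the 8 naive markers were lower and 3 of the 6 formative markers higher in Tet3-/- than in XX by limma. On unscaled TPM 1 was lower and 1 higher. The naive markers summed to 36.1 to 50.6 in Tet3-/- and 87.8 to 92.1 in XX, and the formative ones to 60.5 to 115.5 and 45.6 to 47.1. In mESC none of either list was called. The 4 mesoderm markers summed to 3.15 to 3.43 in XX EpiLC and 3.92 to 93.7 in Tet3-/- EpiLC, highest in #3, and without that library the Slc2a1 difference in EpiLC was 0.62. The part of these markers in the differences of the 10 genes was not tested. Pfkp was -0.55 (SE 0.25, limma adjusted p = 0.246) in EpiLC. The Slc2a1 to Slc2a3 ratio was higher in Tet3-/- in both states with no overlap, by 1.02 in mESC and 1.04 in EpiLC (exact 2-sided permutation p = 0.0571 and 0.1, the smallest possible). None of the 10 genes differed between the Tet3-/- and XX transitions by limma (0.661% of all genes were called), and 1 of them, Hk1, had an unadjusted p under 0.05 (difference of transitions -0.44, SE 0.20, adjusted p = 0.427).

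**Figure D4:**
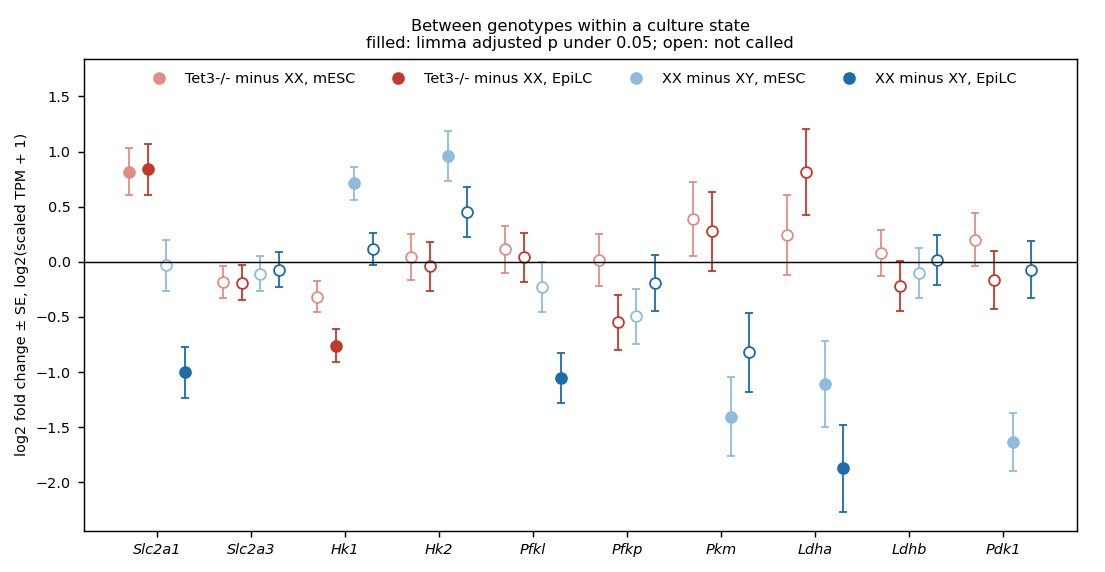
Log2 fold change (± SE) of the 10 genes between genotypes within a state, Tet3-/- minus XX in mESC and EpiLC and XX minus XY in mESC and EpiLC; filled points passed limma's adjusted p of 0.05. Slc2a1 is above 0 in both Tet3-/- comparisons, and Pkm and Ldha are below 0 in both XX minus XY comparisons.

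Between the lines, XY mESC held more Pkm, Ldha and Pdk1 and less of both hexokinases than XX mESC, and XY EpiLC held more Ldha, Pfkl and Slc2a1. In mESC 5 of the 10 genes were called, 2 higher and 3 lower in XX, where 31.3% of all tested genes were called, 17.7% higher and 13.6% lower. Pkm was 2.43-fold higher in XY mESC (log2 fold change of XX minus XY -1.41, SE 0.36, limma adjusted p = 0.00672), Ldha 2.12-fold higher (-1.11, SE 0.39, 0.0403) and Pdk1 3.21-fold higher (-1.63, SE 0.26, 0.000169). The hexokinases went the other way, with Hk1 1.71-fold higher in XX mESC (0.71, SE 0.15, 0.00156) and Hk2 1.96-fold higher (0.96, SE 0.22, 0.00370). On unscaled TPM the Hk1, Hk2 and Ldha calls were lost (limma adjusted p = 0.226, 0.305 and 0.104), and 14.2% of all genes were called. The Ldha call was also lost without XX replicate 1 (limma adjusted p = 0.129), XX replicate 3 (0.140), XY replicate 1 (0.131) or XY replicate 3 (0.0997), with a range of 0.00153 to 0.104 over its 12 alternatives, and without both libraries that stood apart Pkm and Ldha were at -1.85 and -1.40. Pfkp was not called (-0.50, limma adjusted p = 0.151), and without XY mESC replicate 2 it was -0.89 (0.00170).

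The mESC of the lines also differed in cell state markers by limma. Of the 8 naive markers 4 were higher in XX (Klf4 by 1.05, Esrrb by 0.68, Tbx3 by 0.63 and Nanog by 0.62 on the log2 scale) and 2 lower (Zfp42 at -1.02 and Klf2 at -0.72). On unscaled TPM 0 were called higher and 1 lower. Their summed level was 585 to 631 scaled TPM in XX and 453 to 621 in XY. Of the 6 formative markers Otx2 was higher in XX (3.20) and Lef1 (-2.12) and Dnmt3b (-0.80) were lower, with a summed level of 27.3 to 32.6 in XX and 15.8 to 19.4 in XY. Both mesoderm markers tested were lower in XX, T at -2.87 and Eomes at -1.02, and the 4 on the list summed to 0.458 to 1.07 in XX and 7.78 to 12.2 in XY. The 4 trophoblast markers summed to 15.6 to 17.7 in XX and 5.74 to 9.86 in XY, with Tfap2c at 2.38 and Cdx2 at -2.07. The primitive endoderm marker Gata6 was at 1.57, and that list of 6 summed to at most 4.83 in any of these libraries. The part of these markers in the differences of the 10 genes was not tested.

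In EpiLC 3 of the 10 genes were called, all lower in XX, where 33.8% of all genes were called and 16.6% were lower. Ldha was 3.71-fold higher in XY EpiLC (log2 fold change of XX minus XY -1.87, SE 0.39, limma adjusted p = 0.00144), Pfkl 2.12-fold higher (-1.05, SE 0.23, 0.00180) and Slc2a1 2.03-fold higher (-1.003, SE 0.23, 0.00281). Each of the 3 was called in all 11 alternatives, among them TPM rescaled over protein-coding genes, where Ldha was at -1.999 and Slc2a1 at -1.13. Pkm was 1.77-fold higher in XY EpiLC with no overlap, and its log2 fold change of -0.82 (SE 0.36) was not called (limma adjusted p = 0.0884). On unscaled TPM 7 of the 10 genes were called, all lower in XX, where 47.2% of all genes were called and 42% were lower. The 4 gained there were Pkm (-1.56, limma adjusted p = 0.0199), Slc2a3 (-0.81, 0.0106), Pdk1 (-0.78, 0.0140) and Ldhb (-0.71, 0.0496), where the median gene was at -0.58. The EpiLC of the lines also differed in formative markers, all 6 of which were lower in XX, with a summed level of 45.6 to 47.1 in XX EpiLC, 60.5 to 115.5 in Tet3-/- EpiLC and 192 to 197 in XY EpiLC. Of the 8 naive markers 6 were higher in XX EpiLC, with summed levels of 87.8 to 92.1 in XX and 53.1 to 61.9 in XY. The mesoderm markers summed to 3.15 to 3.43 in XX and 15.7 to 19.2 in XY, and the trophoblast markers to 6.46 to 7.56 and 0.8285 to 1.35. The part of these markers in the EpiLC differences was not tested.

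The transitions of the lines differed for 3 of the 10 genes, where 23.7% of all genes were called. Pdk1 rose in XX and was not called in XY (difference of transitions 1.56, SE 0.37, limma adjusted p = 0.00549), which held in all 13 alternatives (limma adjusted p from 6.30e-05 to 0.0298). Slc2a1 rose more in XY (difference -0.97, SE 0.32, 0.0390) and Hk1 fell more in XX (-0.59, SE 0.21, 0.0489). With the 12 libraries left out in turn, the Slc2a1 call was lost for 8 (limma adjusted p from 0.0606 to 0.0946), which were XX mESC replicate 2, XY mESC replicate 2 and each of the 6 EpiLC libraries. The Hk1 call was lost for 11 (limma adjusted p from 0.0577 to 0.131). Over 13 other alternatives Slc2a1 was called in 9 and Hk1 in 2, and on unscaled TPM Slc2a1 was at -1.44 and not called (limma adjusted p = 0.1101). The one left-out library that kept the Hk1 call was XX mESC replicate 2 (-0.82, limma adjusted p = 0.000541).

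Promoters are shown for Ldha, with the largest XX to XY difference in EpiLC, for Slc2a1, which rose in all 3 transitions, and for Hk1, which fell in all 3. RefSeq windows (GRCm38.p6) from 250 bases before to 50 after a start were found for 9 of the 10 genes, in 13 windows, and Slc2a3 is only named. Each window was searched on both strands for ACGTG and GCGTG, the forms of the core bound by the hypoxia-inducible factors, and for CACGTG, the E-box of Myc and related factors. CACGTG holds ACGTG on both strands and so counts as 2 of it. Capitals mark ACGTG or GCGTG on either strand. The Ldha window is at chr7:46845554-46845853 (+), Slc2a1 at chr4:119108495-119108794 (+) and Hk1 at chr10:62340372-62340671 (-), and each is printed along its gene.
Ldha promoter: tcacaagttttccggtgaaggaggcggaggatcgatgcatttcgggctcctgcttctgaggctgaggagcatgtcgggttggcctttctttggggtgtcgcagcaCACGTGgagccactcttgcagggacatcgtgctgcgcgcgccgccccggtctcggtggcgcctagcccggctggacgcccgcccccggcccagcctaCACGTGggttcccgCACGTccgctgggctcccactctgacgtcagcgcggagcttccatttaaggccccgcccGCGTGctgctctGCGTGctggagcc
Slc2a1 promoter: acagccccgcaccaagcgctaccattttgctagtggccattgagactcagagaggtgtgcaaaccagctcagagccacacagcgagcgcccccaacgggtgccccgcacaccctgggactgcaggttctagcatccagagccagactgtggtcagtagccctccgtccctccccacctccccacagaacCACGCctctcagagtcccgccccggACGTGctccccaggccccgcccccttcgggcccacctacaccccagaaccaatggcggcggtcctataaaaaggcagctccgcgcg
Hk1 promoter: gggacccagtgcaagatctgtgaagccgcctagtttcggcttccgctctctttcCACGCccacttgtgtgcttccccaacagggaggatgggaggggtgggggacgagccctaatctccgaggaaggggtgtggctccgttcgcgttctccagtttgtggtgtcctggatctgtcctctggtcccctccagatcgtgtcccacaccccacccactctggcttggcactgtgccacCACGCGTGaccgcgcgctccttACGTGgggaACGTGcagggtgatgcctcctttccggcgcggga
Transcripts starting in these windows held 97.0% of Ldha TPM, 59.0% of Slc2a1 TPM and 73.2% of Hk1 TPM. The Ldha window held 5 matches to ACGTG, 2 to GCGTG and 2 to CACGTG, the Slc2a1 window 1, 1 and 0, and the Hk1 window 2, 3 and 0. Among all 32851 windows of this length, 19.6% held ACGTG, 32.4% held GCGTG, 43.8% held either and 7.15% held CACGTG. The Pfkp window held GCGTG 4 times and the Hk2 window ACGTG 2 times, and the main Pkm window held neither. Genes that rose and genes that fell both held matches, and a match is a description of letters in a window.

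The 10 genes fell into groups by their pattern over the 19 libraries, described here by Pearson's r of log2 values with no test, since the libraries share states and genotypes. Hk1, Pfkp and Ldhb ran together (r = 0.916 for Hk1 with Pfkp, 0.908 for Hk1 with Ldhb and 0.887 for Pfkp with Ldhb). Pkm ran with Ldha (0.889) and Slc2a1 with Pfkl (0.849), whereas Slc2a1 ran against Hk1 (-0.838) and Hk2 against Pdk1 (-0.836). Of 9512 genes compared, the most alike to Pkm were Swsap1 and Eno1 (0.975 each), and the latter encodes the glycolytic enolase. Among those most alike to Slc2a1 was Ttyh3 (0.957), and among those most alike to Ldha was Fads1 (0.938). For Pfkl they were Fam169a (0.966) and Naf1 (0.958), and for Pfkp Dnajc6 (0.980) and H2-M5 (0.978). For Hk1 they were Acp6 (0.977) and the mitochondrial isocitrate dehydrogenase Idh2 (0.973), for Hk2 Nup133 (0.933) and Polr1a (0.926), and for Ldhb Cdo1 and Pank1 (0.958 each). Pdk1 was most like Fstl1 (0.968) and Phlda2 (0.934), and Slc2a3 had the lowest values, with Flcn (0.847) and Copg2 (0.846).

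The heatmap of the pathway sets the 10 genes beside the enzymes between them. Of 12 further glycolytic enzymes tested, 4 rose and 1 fell in XX, 3 rose and 3 fell in XY, and 2 rose and 1 fell in Tet3-/-. In unscaled TPM 5 were higher and 0 lower in XX, 6 and 0 in XY, and 1 and 0 in Tet3-/-, so that no fall in this list was called on that scale. The muscle enolase Eno3 rose in all 3, by 2.36, 2.31 and 2.00 on the log2 scale, and Eno1 rose by 1.39 in XX and 1.02 in Tet3-/- (0.85 on unscaled TPM, which was not called). Eno1 was at 32.9, 118.7 and 31.5 scaled TPM in XX mESC replicates 1, 2 and 3. It was at 209.2, 172.1 and 190.8 in XY mESC and 135.3, 127.9 and 133.7 in XX EpiLC. In XX against XY mESC 0 of the 12 enzymes were higher and 5 lower, where 17.7% of all genes were higher and 13.6% lower. Eno1 was at -1.91, Pgam1 at -1.04, Aldoa at -0.90 and Gapdh at -0.84, so that these enzymes lay on the same side as Pkm and Ldha. On unscaled TPM 4 of the 12 were lower, where 14.2% of all genes were called. For Tet3-/- minus XX in mESC 0 of the 12 were called by limma and 0 had an unadjusted p under 0.05. In EpiLC 1 was called, Eno3, which was lower in Tet3-/- than in XX (-0.72, limma adjusted p = 0.0421). It was not called without both libraries that stood apart (-0.59, 0.0911). Of all genes 3.18% were called against Tet3-/- in mESC and 5.46% in EpiLC. In XX against XY EpiLC limma called 0 of the 12 on scaled TPM, with an unadjusted p under 0.05 for 2, where 33.8% of all genes were called. On unscaled TPM it called 9 lower, where 42% of all genes were lower.

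**Figure D5:**
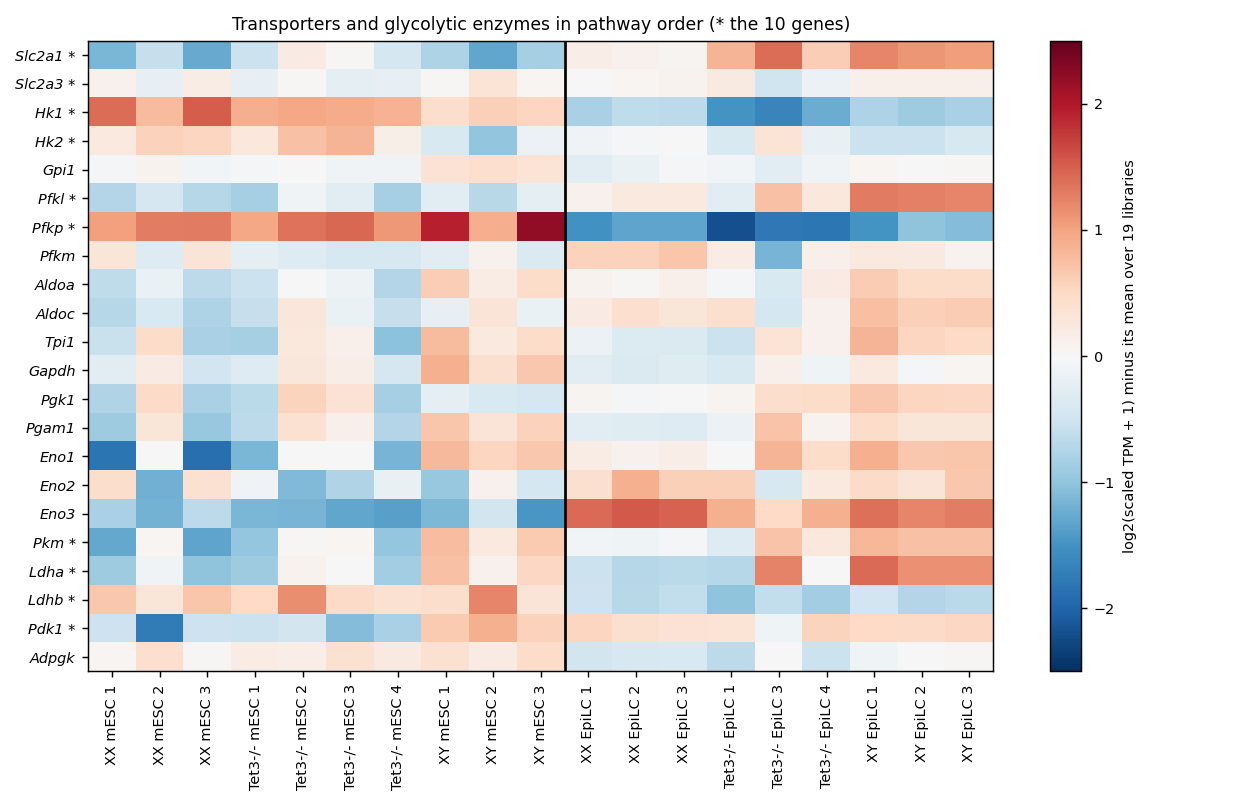
log2(scaled TPM + 1) of 22 transporters and glycolytic enzymes in pathway order, in each of the 19 libraries, minus the gene's mean over the libraries; asterisks mark the 10 genes and the black line parts mESC from EpiLC. Pfkp and Hk1 turn from red in mESC to blue in EpiLC, Eno3 and Slc2a1 run the other way, and Eno1, Pkm and Ldha are low together in XX mESC replicates 1 and 3 and Tet3-/- mESC #1 and #4.

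Around Pfkl and Pfkp, 10 genes of fructose 2,6-bisphosphate turnover and gluconeogenesis were tested, of which 1 rose and 3 fell in XX, 3 and 3 in XY, and 2 and 3 in Tet3-/-. In unscaled TPM they were 2 and 3, 5 and 2, and 2 and 3. Of all tested genes 50.4%, 51.4% and 52.4% were called in these transitions, and 31.3%, 50.5% and 35.1% on unscaled TPM. Pfkfb3, which makes the activator of phosphofructokinase, rose by 2.36, 1.05 and 2.73 on the log2 scale in XX, XY and Tet3-/-. Fbp2, a fructose bisphosphatase that runs the step backwards, fell in all 3 (-3.64, -2.80 and -3.16), as did Tigar, which breaks the activator down (-1.20, -1.79 and -1.24). Beside the lactate dehydrogenases, 17 genes of lactate and pyruvate handling were tested, of which 3 rose and 5 fell in XX, 6 and 6 in XY, and 3 and 7 in Tet3-/-. On unscaled TPM 2 were higher and 4 lower in XX, 8 and 2 in XY, and 2 and 5 in Tet3-/-. The same shares of all genes apply beside this list. Slc16a3, the lactate exporter MCT4, rose by 3.61, 3.86 and 3.76 on the log2 scale, from 0.850 ± 0.434 (SD, n = 3) to 21.1 ± 1.85 (SD, n = 3) scaled TPM in XX. Slc16a7, another monocarboxylate transporter, rose by 1.21, 1.76 and 1.46. Mpc1, a subunit of the mitochondrial pyruvate carrier, fell in all 3 (-1.20, -2.44 and -0.92). Pdp2, the phosphatase that opposes Pdk1, fell in all 3 (-2.79, -1.60 and -2.69).

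Of the other glucose transporters 3 of 9 passed the filter, and in XX and Tet3-/- cells Slc2a4 (GLUT4) rose (1.105 and 0.81) while Slc2a8 fell (-0.79 and -1.16), as did Slc2a12 (-0.99 in Tet3-/-). In Tet3-/- cells Slc2a4 was low, at 0.273 to 0.52 scaled TPM in mESC and 2.78, 0.44 and 1.61 in EpiLC #1, #3 and #4. There the states overlapped. None of the 3 transporters was called in XY by limma, and 0 had an unadjusted p under 0.05. The 7 enzymes of the pentose phosphate pathway, which leaves glycolysis after the hexokinase step, gave 1 higher and 2 lower in XX, 1 and 5 in XY, and 1 and 2 in Tet3-/-, with Rpe and Pgd at -1.18 each and Taldo1 at -0.98 in XY. On unscaled TPM none of these enzymes was called lower in XX or XY, and the counts were 1 higher and 0 lower in XX, 2 and 0 in XY, and 1 and 1 in Tet3-/-. Beside these enzymes and the transporters, 50.4%, 51.4% and 52.4% of all tested genes were called in XX, XY and Tet3-/-. On unscaled TPM 31.3%, 50.5% and 35.1% were. Among 10 factors linked to glycolysis in pluripotent cells, the RNA-binding proteins Lin28a and Lin28b rose in all 3 transitions (4.79, 3.96 and 4.89 for Lin28a; 2.45, 3.65 and 2.65 for Lin28b) and the naive factor Esrrb fell (-3.06, -5.68 and -4.56).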

How the data were processed

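RNA was measured in 19 libraries of stranded total RNA depleted of ribosomal RNA, from samples with an RNA integrity number of at least 9 and 200 ng of input, per the labels' protocols. The authors deposited 1 table of TPM per transcript for 140948 transcripts, each column summing to 1000000, and per the submitters' processing notes FastQC 0.11.7, Trimmomatic 0.35, Salmon 1.1.0 and GRCm38 were used, with the annotation release not given in the sources used here. Columns were matched to libraries by name, and 1 column titled with a bare number, whose unit is entered as other, was also TPM as deposited by the authors.

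Gene values are sums over transcripts, assigned to genes by GENCODE M21 (GRCm38); 139357 transcripts matched with their version, 495 without, and 1096 (0.045% to 0.215% of TPM) did not. TPM was divided by median-of-ratios size factors over 13815 genes, because the protein-coding share of TPM differed between groups; unscaled TPM was the first alternative. The 14972 genes that reached a TPM of 1 in 3 or more libraries were tested with limma 3.58.1 in R 4.3.3 (eBayes with a trend) on log2(scaled TPM + 1), which understates the change of low genes, in 1 fit of 6 groups and 9 contrasts, with Benjamini-Hochberg adjustment and a threshold of 0.05. Ratios used a pseudocount of 0.1 and exact 2-sided permutation tests in Python 3.11.15 with SciPy 1.17.1. The fit was tested on simulated data. Reads shared with pseudogenes of Gapdh, Ldha, Pkm and other glycolytic genes cannot be checked in TPM.

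The members and lists were chosen with earlier results of these data known. All 10 genes were named in every contrast; from each list at most 4 called genes per contrast were named, by size of change, with any whose call depended on the scaling, and 2 most alike genes per member among 9512, of which 2 genes are not reported here. Mpc1 in Tet3-/- and the cell state markers were named after their values were seen. Alternatives were other scalings, pseudocount 0.1, other filters, eBayes without a trend, coding transcripts only, a minimum absolute log2 fold change of 1 beside the adjusted p, only the groups compared, replicate blocks, and each library left out. Leaving out both libraries that stood apart was added after the data were seen. Of 9 same-numbered pairs 4 had correlated deviations above 0.1, so the numbers were not taken to pair libraries. EpiLC of mutant #2 were not analysed here.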

Additional observations from a re-analysis of the deposited data

Results flagged for a closer look

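In the group of 4 Tet3-/- mESC libraries, #2 was apart from the others on scaled TPM for 2 of the 10 genes. It held 286.4 scaled TPM of Slc2a3, where the others lay between 239.1 and 245.1, and 276.7 of Ldhb, where the others lay between 160.1 and 174.1. On unscaled TPM Slc2a3 was at 268.3 in #2 and 263.0 in #4, close together. Ldhb was still apart there, at 259.3 in #2 and 156.2 to 174.7 in the others. The gap test used marks about 1 in 20 groups by chance.

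The change from mESC to EpiLC differed between the XX and XY lines for 3 of the 10 genes by limma's test of the difference itself. Of all tested genes 23.7% were called in it, and a positive value means a larger rise or smaller fall in XX. The difference was 1.56 for Pdk1 (adjusted p = 0.00549), -0.97 for Slc2a1 (0.0390) and -0.59 for Hk1 (0.0489). With 12 libraries left out in turn, the Pdk1 call held in 12 fits, the Slc2a1 call in 4 and the Hk1 call in 1. Over 13 alternatives they held in 13, 9 and 2. For Pdk1 the lines differed in mESC, at 6.17 ± 2.93 (SD, n = 3) scaled TPM in XX and 19.8 ± 2.45 (SD, n = 3) in XY, and overlapped in EpiLC. For Slc2a1 they overlapped in mESC and were 2.03-fold apart in EpiLC, and for Hk1 they were 1.71-fold apart in mESC and overlapped in EpiLC. Sex and cell line cannot be told apart here.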

How the results depend on the processing

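Of 1800 values of the 10 genes under an alternative, 1674 stayed on the same side of the threshold (107 of them uncalled in both with a changed sign), 94 lost a call, 29 gained one and 3 reversed. Slc2a3 in the XY transition reversed to 0.66 on unscaled TPM and 0.52 after quantile normalization, and Ldhb for XX minus XY in EpiLC to -0.71 on unscaled TPM. The number of the 10 genes called moved as follows. For the Tet3-/- transition it was 7, and 4 on unscaled TPM or with a log2 fold change of at least 1 required too. For Tet3-/- minus XX in mESC it was 1, and 0 on unscaled TPM, on TPM rescaled over protein-coding genes, with a pseudocount of 0.1, without a filter, without a trend, with coding transcripts only, with a fold change of at least 1 or with only the groups compared, and 2 without both libraries that stood apart (added after the data were seen). In EpiLC it was 2, and 0 on unscaled TPM, with a fold change of at least 1 or with only the groups compared, and 1 on rescaled TPM, without a filter or without both libraries. For XX minus XY in mESC it was 5, and 2 on unscaled TPM or with only the groups compared and 3 with a fold change of at least 1. In EpiLC it was 3, and 7 on unscaled TPM and 5 with only the groups compared. For the difference of the XX and XY transitions it was 3, and 1 on rescaled TPM, without a filter or with a fold change of at least 1. With each library left out the counts ranged from 6 to 8 (Tet3-/- transition), 0 to 2 and 1 to 2 (Tet3-/- minus XX in mESC and EpiLC), 4 to 6 and 3 to 3 (XX minus XY in mESC and EpiLC) and 1 to 2 (difference of the XX and XY transitions). The Tet3-/- and XX transitions differed for 0 of the 10 genes under each alternative by limma, with an unadjusted p under 0.05 for 1. Among 238 ratio and isoform values 4 moved by more than the spread: Pfkp to Pfkl changed by -3.38 in XX and -3.86 in Tet3-/- with a pseudocount of 1 and by -3.87 and -4.60 with coding transcripts only, against -3.61 and -4.19.

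The groups share replicate numbers, but the labels do not say what a number marks, and only 4 of 9 same-numbered pairs had correlated deviations above 0.1 (from -0.094 to 0.274). With the replicate number as a block, the transitions of XX, XY and Tet3-/- cells had 7, 5 and 7 called genes. The block left 1 and 2 for Tet3-/- minus XX (mESC, then EpiLC), 5 and 3 for XX minus XY, 0 for the difference of the Tet3-/- and XX transitions and 2 for that of XX and XY. With a replicate block within each genotype the transitions gave 8, 6 and 9. Depth is unknown, and precision rests on 3 or 4 libraries a group.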

Other observations

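Genes of the hypoxia-inducible factor pathway and its targets outside glycolysis were called in both directions, as were all tested genes. Of 16 genes tested, 3 rose and 5 fell in XX, 7 rose and 3 fell in XY, and 6 rose and 5 fell in Tet3-/- by limma. In unscaled TPM the counts were 2 and 1, 9 and 1, and 2 and 4. Of all tested genes 24.5% rose and 25.9% fell in XX, 26.4% and 25% in XY, and 25.2% and 27.2% in Tet3-/-. On unscaled TPM 31.3%, 50.5% and 35.1% were called in either direction. In XY cells Ddit4 (2.21), Vegfa (2.17), Egln3 (1.49) and P4ha2 (1.36) had the largest rises on the log2 scale. In XX cells Vhl (-1.09) and Ndrg1 (-0.92, and -1.48 without XX mESC replicate 2) fell while Ddit4 (0.98) and P4ha2 (0.87) rose. Vegfa, the angiogenic growth factor, was lower in Tet3-/- than in XX in mESC (-0.99, adjusted p = 0.00760) and EpiLC (-0.73, 0.0420), the opposite side from Slc2a1. On unscaled TPM Vegfa was called in neither state, where 0.601% and 1.08% of all genes were. Without both libraries that stood apart, an alternative added after the data were seen, the EpiLC value was -0.43 (0.0440), and of these only Tet3-/- #3 is an EpiLC library. Vegfa was also higher in XX than in XY mESC, by 2.16, where Ldha and Pkm were lower.

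Txnip, an inhibitor of glucose uptake that glucose induces, was higher in XX than in XY in mESC (2.04) and EpiLC (2.80) by limma. It was at 99.3 ± 64.2 (SD, n = 3) scaled TPM in XX mESC, 19.1 ± 7.72 (SD, n = 3) in XY mESC, 90.6 ± 0.867 (SD, n = 3) in XX EpiLC and 12.2 ± 1.20 (SD, n = 3) in XY EpiLC. Its lowest XX value, 25.1, was in mESC replicate 2, the XX mESC library with the highest Pkm and Ldha, and its lowest Tet3-/- EpiLC value, 30.3, was in #3, the mutant EpiLC library with the highest Pkm, Ldha and Slc2a1. Myc rose in XX (1.59) and Tet3-/- (1.95), where EpiLC #1, #3 and #4 held 1.785, 8.26 and 2.89 scaled TPM. In XY it went from 1.31, 0.853 and 1.33 to 3.03, 2.925 and 2.85. Mycn, on the same list, went the other way in XX, from 10.7, 17.4 and 10.2 to 4.34, 3.75 and 4.15. In Tet3-/- cells Mycn was at 13.2 to 17.7 in mESC and 3.48, 19.8 and 5.94 in EpiLC, and in XY its states overlapped. Mpc2, a subunit of the mitochondrial pyruvate carrier, was higher in Tet3-/- than in XX mESC (0.74, adjusted p = 0.0231). In EpiLC the lactate exporter Slc16a3 was lower (-1.50) and Mpc1 higher (1.32) in XX than in XY.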
